A study of Mus musculus with 24 samples.

Results

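Interferon-stimulated genes are the transcripts that cells switch on when interferon is sensed, and 9 of them were followed here in the hippocampus of Aged mice: Ifit1, Ifit3, Isg15, Irf7, Oasl2, Bst2, Ifi27, Usp18 and Rtp4. They were taken by their symbols from the 49568 gene symbols of the count files. All 9 passed the filter on low counts that left 20187 genes to test. In 21 mice their levels differed more between mice of the same group than most genes did, and most of them went up and down together from mouse to mouse. None was called changed by enrichment or by loss of MSK1 kinase activity. The same test called at most 0.00495% of all genes in any comparison, so the absence of calls is not particular to these genes.

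The study asked how enriched experience and MSK1, a kinase of the nucleus, shape hippocampal gene expression in old mice. Poly(A) RNA of 24 mice, 1 library per mouse, was sequenced in pairs of reads. The 4 groups crossed genotype with housing. Standard-housed WT mice are called WTSH and enriched ones WTEE, and MSK1 KD mice are KDSH in standard housing and KDEE in enrichment, with 4, 6, 5 and 6 libraries in that order after the study set aside WTSH samples 4 and 7 and KDSH sample 6. All mice were males on a C57-Bl/6J background, 21 to 23 months old when the hippocampus was taken. MSK1 KD mice carry a point mutation in both copies of the gene for MSK1 (Rps6ka5) that removes its kinase activity in every cell that makes it, from birth on. They were bred as a line apart from the WT line. Because the mutant transcript is still made, its level does not check the labels. Mean normalized counts of Rps6ka5 were 1119 in WTSH, 1043 in WTEE, 1158 in KDSH and 1139 in KDEE. The study itself inspected the aligned reads and reports the point mutation in the MSK1 KD samples. Standard-housed mice lived in small groups with bedding and a cardboard tube. Enriched mice moved at 18 months to large cages with a running wheel and toys and stayed there. Enriched cages also held more males than standard cages, so larger groups, novelty and exercise came together. Which mice shared a cage is not given in the sources used here.

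Type I interferons bind a receptor made of Ifnar1 and Ifnar2 and act through the kinases Jak1 and Tyk2 on a factor complex that holds Stat2 and Irf9 and binds a short DNA element, the interferon-stimulated response element. Interferon gamma acts through another element, the gamma-activated site, and the 2 gene programmes overlap. In brain the response is carried by microglia, endothelium, astrocytes and neurons to differing extents, and the choroid plexus, the tissue in the ventricles that makes cerebrospinal fluid and lies against the hippocampus, is known for interferon-driven expression in old age.

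The DNA before the start sites is shown because these genes are named for a response that is read from it. Promoters from RefSeq on GRCm38.p6, each 250 bases before to 50 after the start, were at hand for 6 of the 9 members (Ifit1, Ifit3, Isg15, Irf7, Oasl2 and Bst2). They were searched for the core of the response element, which is GAAA, any 2 bases and GAAA again, on either strand (TTTC, 2 bases and TTTC on the other). It was found in 4 of the 6, and each of the 4 held at least 2 matches, some of which overlap. Of 32851 mouse promoters of the same length, 3.44% held 1 or more and 0.225% held 2 or more. Neither Irf7 nor Oasl2 held these letters in the window. The 160 bases before the start follow for the 4, with the matches in capitals. They are chr4:156200819-156200978 on the minus strand for Isg15, chr8:71537473-71537632 on the minus strand for Bst2, chr19:34583369-34583528 on the plus strand for Ifit3 and chr19:34640729-34640888 on the plus strand for Ifit1, and each is written 5′ to 3′ towards the gene. The start is RefSeq's, which for Ifit1 lies inside the GENCODE gene given further on, so the end of that window overlaps it.
Isg15: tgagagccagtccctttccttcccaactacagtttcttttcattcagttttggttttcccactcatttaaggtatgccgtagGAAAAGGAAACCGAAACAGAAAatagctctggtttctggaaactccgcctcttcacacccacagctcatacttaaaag
Bst2: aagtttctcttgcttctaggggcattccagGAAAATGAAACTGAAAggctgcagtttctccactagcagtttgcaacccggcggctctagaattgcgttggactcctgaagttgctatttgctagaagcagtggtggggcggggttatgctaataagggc
Ifit3: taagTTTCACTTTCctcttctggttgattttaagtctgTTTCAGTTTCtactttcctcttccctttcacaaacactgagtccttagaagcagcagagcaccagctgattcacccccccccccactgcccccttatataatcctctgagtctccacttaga
Ifit1: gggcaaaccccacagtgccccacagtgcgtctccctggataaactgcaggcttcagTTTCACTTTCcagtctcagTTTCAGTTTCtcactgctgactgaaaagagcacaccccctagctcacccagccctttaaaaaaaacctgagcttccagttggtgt

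In Isg15 the 3 matches overlap in 1 run that begins 78 bases before the start, and in Bst2 the 2 matches overlap in a run that begins 130 bases before it. In Ifit3 the 2 matches begin 156 and 122 bases before the start, and in Ifit1 104 and 85 bases before it. The gamma-activated site, spelled TTCNNNGAA, which reads the same on both strands, occurred in the Bst2 window at 136 bases before the start, where it overlaps the first capitals, and in 8.30% of all promoters.

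Counts on genes ranged from 27410239 to 71907130 read pairs in the 21 kept libraries and from 15800187 to 39585901 in the 3 that were set aside, and no library was a copy of another of its group. A set of choroid plexus markers (Folr1, Kl, Clic6, Tmem72, Kcne2, Otx2 and Kcnj13) split the kept libraries. Their summed level was 195 to 694 CPM (counts scaled to the size of the library) in 5 libraries, WTSH mouse 19, WTEE mice 10 and 13 and KDEE mice 12 and 14, and 18.99 to 31.0 CPM in the other 16. All 7 markers had counts in each of the 5. Markers of meningeal fibroblasts moved with them (203 to 453 CPM against 69.4 to 124 CPM). KDSH held none of the 5 libraries. Pituitary markers (Gh, Prl, Pomc, Cga and Lhb), which a hippocampus should lack, summed to 242 CPM in KDSH mouse 8 and 405 CPM in the set-aside KDSH sample 6, and to at most 27.7 CPM in every other library. Group comparisons of the members are given with and without the 5 choroid-rich libraries. Where removal of another library turned the direction of the members, that is said too. In tissue RNA, fewer cells of a type and less RNA per cell cannot be told apart.

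Per kilobase of exon, Ifi27 was by far the most abundant member, at 1631 ± 539 normalized counts per kb (SD, n = 21). Bst2 (356 ± 229), Ifit3 (268 ± 95.3) and Isg15 (149 ± 60.3) came next. Ifit1 (61.3 ± 29.4), Rtp4 (54.4 ± 18.8), Oasl2 (45.5 ± 17.3), Irf7 (44.3 ± 20.8) and Usp18 (27.4 ± 12.7) were the lowest. The lowest Ifi27 library (1174 per kb) lay above the highest Bst2 library (931 per kb), whereas all other neighbours in this order overlapped. A normalized count here is a count scaled by edgeR's TMM factors to a library of 48054340 read pairs. From here on values are normalized counts per gene, not per kb.

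The members varied widely from mouse to mouse. The highest library exceeded the lowest by 2.66-fold for Ifi27 and by up to 6.28-fold for Bst2. Within groups, the SD of log2 CPM was 0.40 for Rtp4 to 0.76 for Bst2, against a median of 0.21 over all 20187 genes, and 77.8% to 96.5% of genes had a smaller SD. Counting error alone would give an SD of 0.03 for Ifi27 to 0.17 for Usp18.

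**Figure D1:**
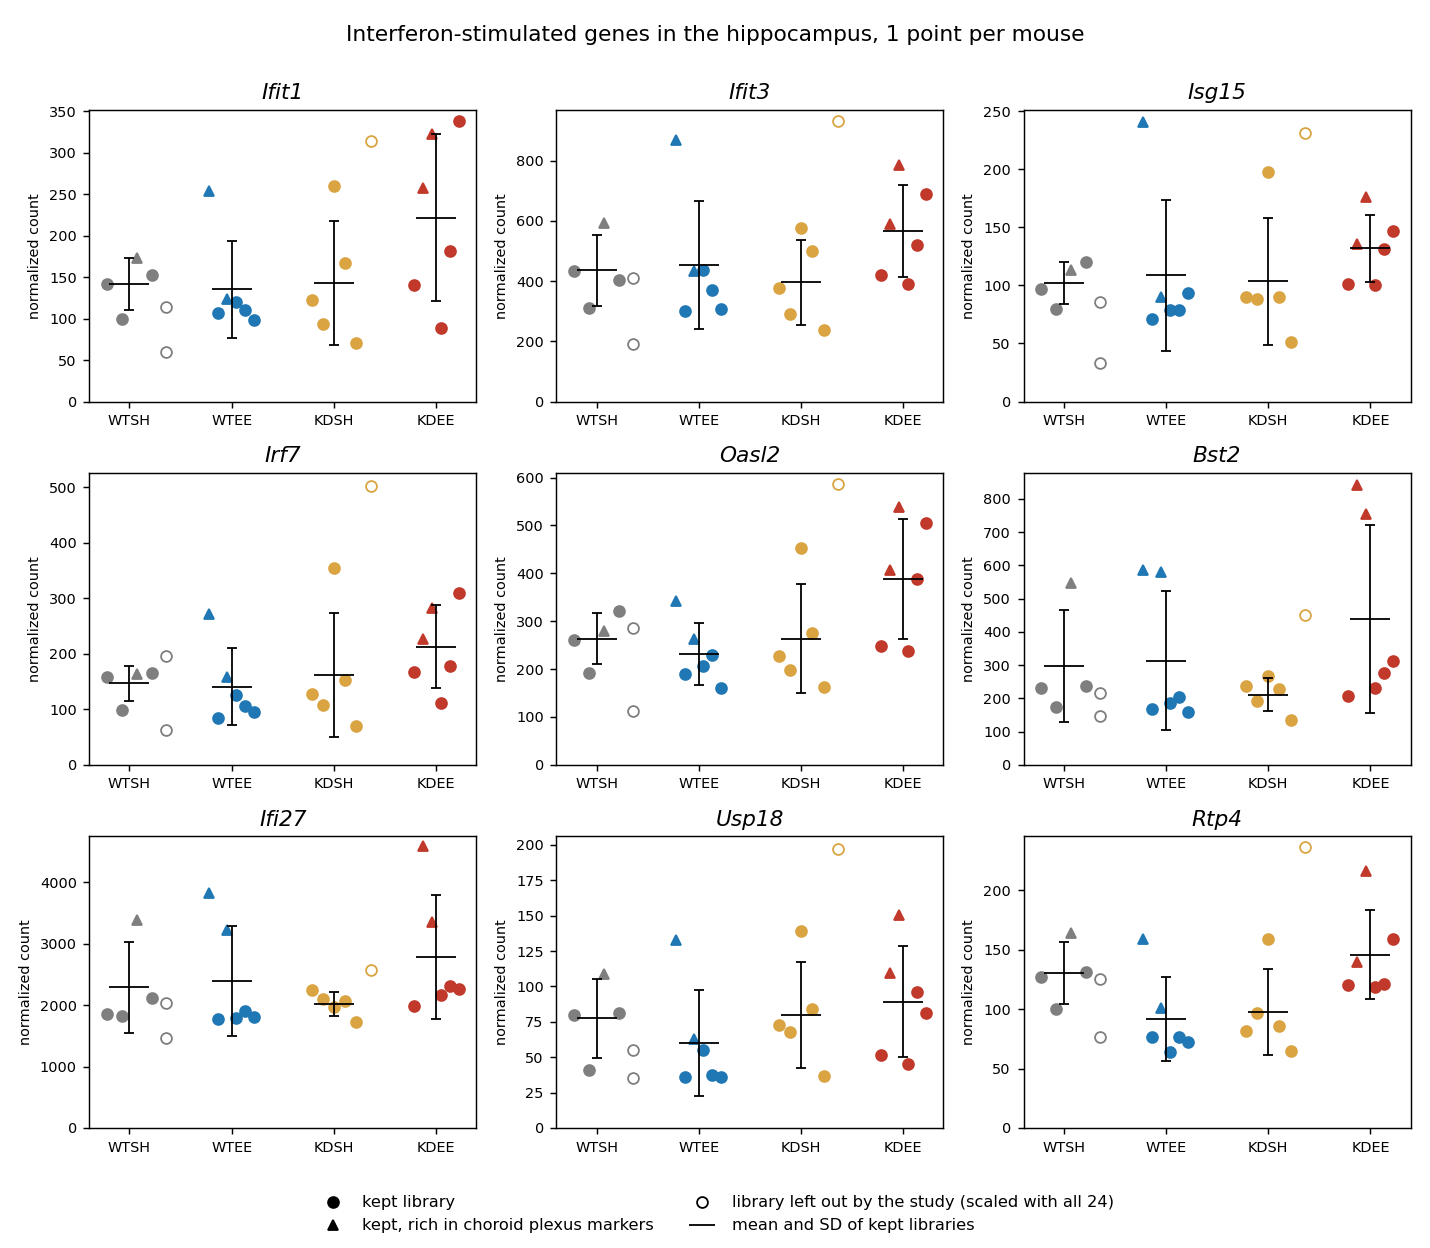
Normalized counts of the 9 members (y axis, linear from 0) in the 4 groups (x axis), 1 point per mouse, with the mean and SD of the 21 kept libraries, triangles for the 5 libraries rich in choroid plexus markers and open circles for the 3 libraries that the study set aside. The groups overlap for all 9 genes, and the Bst2 and Ifi27 triangles all lie above the filled circles.

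Irf7 (chr7:141262706-141266481, minus strand) encodes the transcription factor that amplifies the response. Its normalized counts were 158, 98.3, 164 and 165 in the WTSH mice and 128, 108, 354, 152 and 69.3 in the KDSH mice. In WTEE the lowest, median and highest were 85.0, 116 and 272, and in KDEE 112, 202 and 310.1. KDSH mouse 8, at 354, was the highest of the 21 and its group also held the lowest, so KDSH alone spanned the whole range. Fitted over 4 groups with edgeR's quasi-likelihood test, the KDEE level exceeded that of KDSH by 0.38 ± 0.36 on the log2 scale (SE, adjusted p = 0.646).

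Ifit1 and Ifit3 lie on the same stretch of chromosome 19 (chr19:34640871-34650009 and chr19:34583531-34588731, plus strand) and encode proteins that bind foreign RNA and block its translation. For Ifit1 the WTSH mice stood at 142, 99.3, 173 and 152, and the KDSH mice at 122, 93.0, 260.0, 168 and 70.5. Its lowest, median and highest counts were 97.9, 115 and 253 in WTEE, where mouse 10 stood apart from the other 5, and 89.2, 219.6 and 338 in KDEE. The KDEE mice spread widely: mice 12, 14 and 22 were above 250 and mouse 15 was among the lowest of all. The log2 difference in Ifit1 was 0.62 ± 0.34 for KDEE against KDSH (edgeR adjusted p = 0.466) and -0.70 ± 0.33 for WTEE against KDEE (adjusted p = 0.957).

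Ifit3 was high in many of the same mice. It measured 432, 312, 594 and 403 in WTSH and 376, 289.6, 575, 501 and 238 in KDSH. In WTEE it ran from 300.4 to 869 with a median of 401, and in KDEE from 391.7 to 786 with a median of 555. WTEE mouse 10 was the highest and KDSH mouse 24 the lowest of the 21. The reads of Ifit3 may be shared with its near-identical copy Ifit3b, and only uniquely aligned reads were counted, so the split between the 2 is uncertain. Ifit3b itself averaged 238 in WTSH, 234 in WTEE, 207 in KDSH and 288 in KDEE.

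Oasl2 (chr5:114896936-114912234, plus strand) is a member of the oligoadenylate synthetase family, which senses double-stranded RNA. It measured 260.0, 193, 280.4 and 320.5 in WTSH and 228, 198, 453, 276 and 162 in KDSH. In WTEE the lowest, median and highest were 159.5, 218 and 343, and in KDEE 238, 397 and 538. The 4 highest KDEE mice, at 389 or more, lay above all WTEE mice, and the other KDEE mice overlapped with them. Its difference between the enriched groups was the largest among the members, -0.74 ± 0.24 log2 for WTEE against KDEE (edgeR adjusted p = 0.44).

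Isg15 (chr4:156199424-156200818, minus strand) encodes a small ubiquitin-like protein that is attached to other proteins, and Usp18 (chr6:121245906-121270917, plus strand) encodes the protease that removes it and also restrains signalling at the type I receptor. Isg15 measured 96.6, 79.4, 113 and 120.2 in WTSH and 89.6, 88.4, 197, 90.4 and 51.7 in KDSH. Its WTEE values ran from 71.2 to 241 around a median of 84.5, and its KDEE values from 100.5 to 176 around 133. A single mouse made the spread of Isg15 in each of 2 groups, WTEE mouse 10 and KDSH mouse 8. Usp18 measured 79.6, 40.7, 109 and 81.1 in WTSH, and 72.4, 67.5, 139, 83.8 and 36.4 in KDSH. Its WTEE values ran from 36.05 to 133 around 46.2 and its KDEE values from 45.1 to 151 around 88.7. Usp18 had the smallest difference between KDEE and KDSH of the 9 members, 0.15 ± 0.38 log2 (edgeR adjusted p = 0.871). An antisense gene, Gm44148, overlaps 4.44% of the exon bases of Usp18, and counting ignored the strand.

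Rtp4 (chr16:23520291-23614222, plus strand) encodes a membrane-associated chaperone of receptors that interferon induces. It measured 127, 100.3, 164 and 131 in WTSH and 81.6, 96.5, 159, 85.7 and 64.6 in KDSH. In WTEE the lowest, median and highest were 63.6, 76.3 and 159, and in KDEE 119, 130.5 and 216. Of the 6 WTEE mice, 4 lay below every WTSH mouse and 5 below every KDEE mouse, whereas mouse 10 lay inside both groups. The change with enrichment in WT minus that in MSK1 KD mice was -1.09 ± 0.35 log2 for Rtp4, the largest such estimate of any member (edgeR adjusted p = 0.655). Gm45338 shares 13.9% of the exon bases of Rtp4.

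Bst2 (chr8:71534255-71537456, minus strand) encodes tetherin, which holds budding virus at the cell surface, and Ifi27 (chr12:103434211-103440239, plus strand) encodes a small membrane protein of mitochondria and the nuclear envelope. Bst2 measured 232, 175, 547 and 237 in WTSH and 237, 191, 266, 229 and 134 in KDSH. It ran from 159.5 to 586 in WTEE (median 195) and from 208 to 841 in KDEE (median 295). Ifi27 measured 1849.8, 1819, 3382 and 2110.1 in WTSH, and 2245, 2106, 1971, 2063 and 1723 in KDSH. It ran from 1775 to 3819 in WTEE (median 1860.3) and from 1985 to 4589 in KDEE (median 2280.5). In both genes the high values belonged to the 5 libraries rich in choroid plexus markers.

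Those 5 libraries set Bst2 and Ifi27 apart from the other 7 members. Bst2 was 547 to 841 in the 5 and 134 to 314 in the 16, and the ratio of the medians was 2.68. Ifi27 was 3218 to 4589 against 1723 to 2302, with a ratio of 1.71. Every one of the 5 thus lay above every one of the 16 for these 2 genes, as it did for 488 of the 20187 genes tested (2.42%). The other 7 members overlapped between the 2 sets, with ratios of the medians from 1.47 (Oasl2) to 2.09 (Ifit1). Among the 21, Ifit1 was highest in a library low in choroid markers, that of KDEE mouse 22 at 338. The part of choroid plexus tissue in the levels of these genes was not tested.

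**Figure D2:**
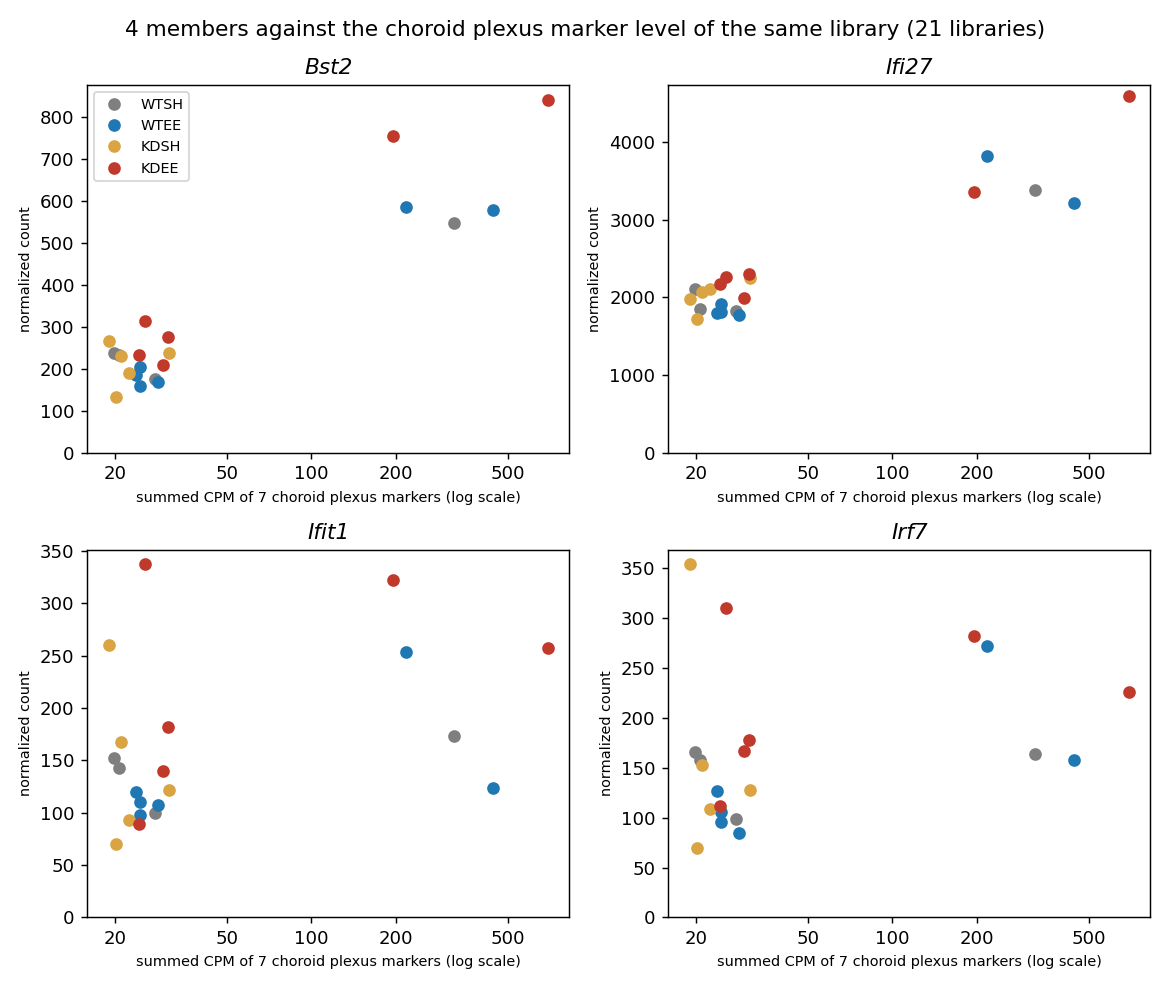
Normalized counts (y axis, linear) of Bst2, Ifi27, Ifit1 and Irf7 in 21 libraries, coloured by group, against the summed CPM of 7 choroid plexus markers in the same library (x axis, log scale). Bst2 and Ifi27 are higher in all 5 libraries at 195 to 694 CPM than in the 16 at 18.99 to 31.0 CPM, whereas Ifit1 and Irf7 reach their highest values at the left.

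No member was called changed by enrichment in WT mice. A call needs, in edgeR's quasi-likelihood test, a Benjamini-Hochberg adjusted p under 0.05 and a log2 fold change over 0.38 in size. Here 0 of 9 members and 0% of all genes were called for WTEE against WTSH. Of the 9, 4 had a higher and 5 a lower mean in WTEE, and the median log2 difference was -0.06 (0.01 over all genes). No member had an unadjusted p under 0.05 in edgeR, the lowest adjusted p was 0.651, and DESeq2 called 0 as well (0.00529% of all genes). Rtp4 differed most, at -0.51 ± 0.25 log2. The largest SE among the members in this comparison was 0.46, for Bst2. The split in direction rested on single mice: without WTEE mouse 10 all 9 were lower in WTEE (median -0.33), without WTSH mouse 5 all 9 were too (median -0.20), and 6 were higher without WTSH mouse 19 (median 0.05).

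In MSK1 KD mice all 9 members had a higher mean after enrichment, though none was called. For KDEE against KDSH edgeR called 0 of 9 members and 0% of all genes. The median log2 difference was 0.51, from 0.15 for Usp18 to 1.05 for Bst2, while that over all genes was 0.00 and 50.4% of genes lay above 0. Unadjusted p was under 0.05 for 3 members, Bst2 (0.0277), Rtp4 (0.0278) and Oasl2 (0.0436), as it was for 11.6% of all genes. The lowest adjusted p was 0.397 in edgeR and 0.301 in DESeq2, which also called 0 (0.0371% of all genes). No member was free of overlap between the groups, and 1.84% of all genes were. Most members vary together from mouse to mouse, so their counts, of direction as of p, cannot be read against the shares of all genes. The choroid plexus markers moved with this comparison, since 2 of the 6 KDEE libraries and none of the 5 KDSH libraries were rich in them. Their sums ran from 24.2 to 694 CPM in KDEE and from 18.99 to 31.0 CPM in KDSH. All markers tested of microglia (7), endothelium (5), astrocytes (5), meningeal fibroblasts (6) and T and NK cells (3) also had higher means in KDEE. Their median log2 differences were 0.14, 0.11, 0.14, 0.40 and 0.47 in that order. Pituitary markers were lower in KDEE for 3 of 4 tested (median -5.13), with 1 called by DESeq2. Hippocampal neuron markers were lower for 4 of 7. So were 4 of 5 genes listed together under the name structural RNA gene models (Rn18s-rs5, Mir6236, Gm23935, Lars2 and Gm10800). Red blood cell markers moved too, from 38.1 to 76.6 CPM in KDSH and from 74.8 to 238 CPM in KDEE. The part of all these tissues and cells in the members' difference was not tested. Without the 5 rich libraries, an alternative chosen after the values were seen, 8 of 9 members still had a higher mean in KDEE but the median difference was 0.27. Bst2 then differed by 0.27 ± 0.17 log2 in place of 1.05 ± 0.44, and Usp18 by -0.24 ± 0.31. With the 3 set-aside libraries included, Irf7 (-0.06 ± 0.39) and Usp18 (-0.16 ± 0.38) turned below 0. KDSH mouse 8 pulled the other way, and without it Ifit1 differed by 0.95 and Irf7 by 0.88.

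In standard housing the direction of the difference between the genotypes depended on single mice. For KDSH against WTSH 0 of 9 members and 0% of all genes were called by edgeR and by DESeq2. Of the 9, 5 were higher and 4 lower in KDSH, with a median of 0.00 and a range from -0.50 for Bst2 to 0.15 for Irf7. Without KDSH mouse 8, the library with pituitary markers, all 9 were lower in KDSH (median -0.32, with Irf7 at -0.35), as they were without WTSH mouse 5 (median -0.17). Without WTSH mouse 19, the choroid-rich library of that group, 7 were higher and Bst2 differed by -0.02. In the 16 libraries 7 were higher and 2 lower, with a median of 0.07. All 7 choroid plexus markers had a lower mean in KDSH (median -2.99) and all 4 pituitary markers tested a higher one (median 5.08), and their part was not tested. No unadjusted p in edgeR was under 0.05, and the lowest was 0.129. KDSH was the most uneven group for Irf7, with a coefficient of variation of 68.6% against 21.98% in WTSH.

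Between the enriched groups all 9 members had a lower mean in WTEE than in KDEE. For WTEE against KDEE edgeR called 0 of 9 members and 0% of all genes. DESeq2 called 0 of 9 members too, and 118 of 37779 genes (0.312%), all of them higher in WTEE. The median log2 difference was -0.57, from -0.22 for Ifi27 to -0.74 for Oasl2, while that over all genes was 0.00 and 49.5% of genes lay above 0. Unadjusted p was under 0.05 for Oasl2 (0.00643), Rtp4 (0.00839) and Ifit1 (0.0424), against 4.99% of all genes, and the lowest adjusted p was 0.44 in edgeR and 0.176 in DESeq2. No member was free of overlap, against 0.624% of all genes. Choroid plexus marker sums ran from 23.8 to 443 CPM in WTEE and from 24.2 to 694 CPM in KDEE, with all 7 lower in WTEE (median -0.33). Structural RNA gene models ran from 3537 to 13775 CPM in WTEE and from 329 to 8562 CPM in KDEE, with 5 of 5 higher in WTEE (median 1.60). Astrocyte markers were lower in WTEE for 4 of 5 (1701 to 1941 against 1729 to 2219.65 CPM). T and NK cell markers were lower for 3 of 3 (0.445 to 1.38 against 0.864 to 1.79 CPM). Microglia markers were lower for 6 of 7 (355.8 to 400.3 against 368.8 to 443.1 CPM). Red blood cell markers were higher in WTEE for 5 of 5 and pituitary markers for 3 of 4 tested. Endothelial markers were higher for 3 of 5, meningeal fibroblast markers for 3 of 6 and hippocampal neuron markers for 4 of 7. The part of these in the members' difference was not tested. This comparison and that of KDEE with KDSH share the KDEE mice, so their directions are not separate evidence. Nor are the 9 members independent of each other, since most of them vary together. Their counts, of direction as of p, thus cannot be read against the shares of all genes.

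In the 16 libraries low in choroid markers the difference between the enriched groups was as large as in the 21. All 9 members were lower in the 4 WTEE mice than in the 4 KDEE mice, with a median log2 difference of -0.71, and edgeR called 0 of 9 (smallest adjusted p 0.804). The WTEE group without mice 10 and 13 was tight: its Rtp4 counts ran from 63.6 to 76.4, whereas KDEE ran from 119 to 159 without mice 12 and 14. Rtp4 differed by -0.83 ± 0.21 log2, Oasl2 by -0.79 ± 0.28, Bst2 by -0.51 ± 0.18 and Ifi27 by -0.26 ± 0.07. In these 4 genes and Isg15 every WTEE mouse lay below every KDEE mouse, that is in 5 of 9 members, as did 1.18% of all genes. The members vary together from mouse to mouse, so their number cannot be read against that share. For WTEE against WTSH the same 16 libraries gave 9 of 9 members lower in WTEE, with a median of -0.29, and every WTEE mouse lay below every WTSH mouse for Rtp4 alone, as was so for 2.73% of all genes. The 16 were picked after the values were seen, and WTEE mouse 10, one of those removed, held the highest WTEE level of every member.

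**Figure D3:**
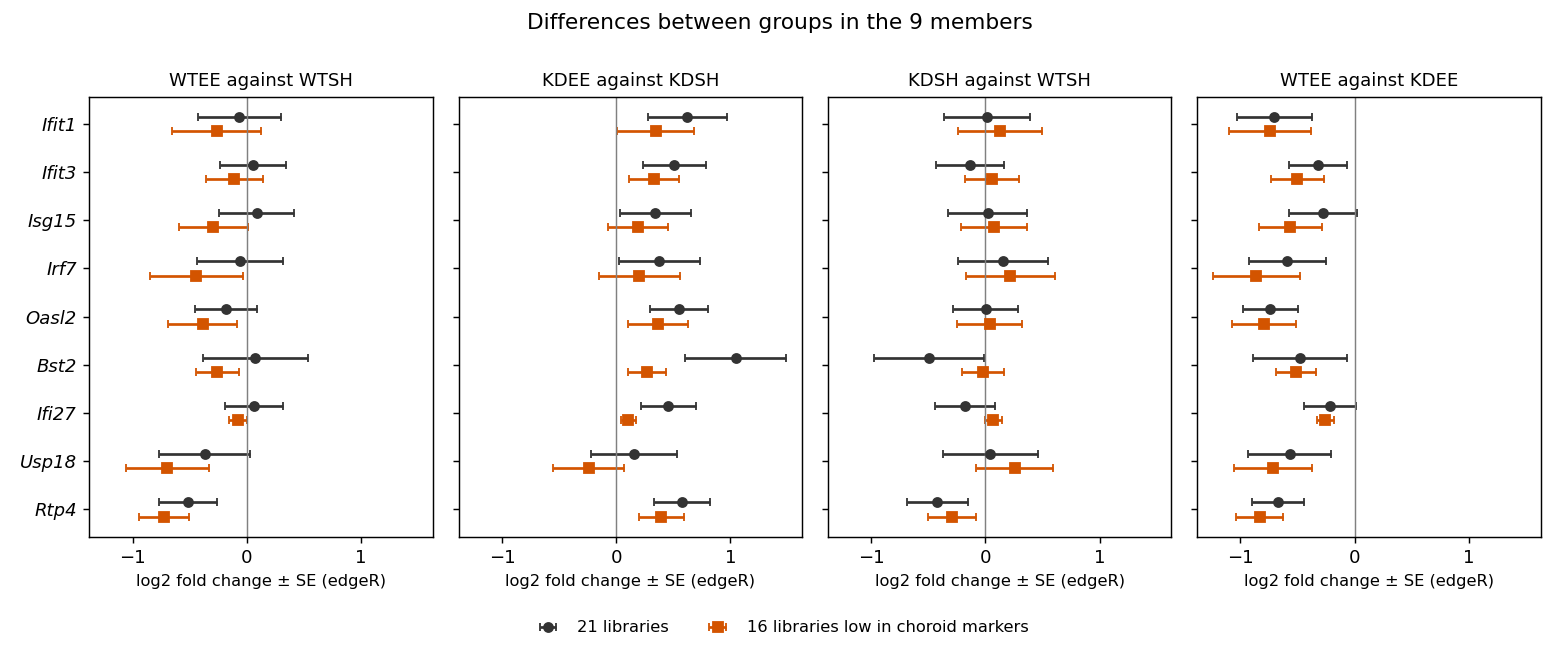
Log2 fold change with its SE from edgeR (x axis) for the 9 members (y axis) in 4 comparisons, in all 21 kept libraries (circles) and in the 16 low in choroid plexus markers (squares). All 9 circles lie above 0 for KDEE against KDSH and below 0 for WTEE against KDEE, and the Bst2 difference between KDEE and KDSH shrinks from 1.05 to 0.27 in the 16.

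The interaction asked whether enrichment acted differently in the 2 genotypes. All 9 estimates for the change in WT minus that in MSK1 KD mice were below 0, with a median of -0.52 (0.00 over all genes), but edgeR called 0 of 9 members and 0% of all genes, and DESeq2 0 of 9 members and 0.0529% of all genes. In the 16 libraries all 9 were below 0 as well (median -0.53). Because the members vary together, 9 estimates on the same side are not separate evidence. Over the 21 libraries only Rtp4 had an unadjusted p under 0.05 in edgeR, and in the 16 Rtp4 and Bst2 did. Over the 21, all 7 choroid plexus markers (median -3.14) and all 5 astrocyte markers (median -0.22) were below 0. So were all 3 T and NK cell markers tested, 6 of 7 microglia and 5 of 6 meningeal fibroblast markers. All 4 pituitary markers tested (median 8.34) and all 5 red blood cell markers were above 0, as were 3 of 5 endothelial markers. Their part was not tested. With all 24 libraries the estimates of Isg15 (0.19 ± 0.48) and Irf7 (0.05 ± 0.56) turned above 0. Averaged over genotypes, enriched minus standard housing gave 8 members above 0 and a median of 0.21, and 0 of 9 were called where 0.00495% of all genes, a single gene, was. Without the 5 choroid-rich libraries that median was -0.01, with 4 members above 0. Averaged over housing, MSK1 KD minus WT gave 8 members above 0 and a median of 0.15, and 0 of 9 and 0% of all genes were called. In the 16 libraries all 9 were above 0 with a median of 0.32, and Ifi27 (0.16 ± 0.05) had an unadjusted p under 0.05 in edgeR. With all 24 libraries Ifit1 (0.57 ± 0.25), Irf7 (0.62 ± 0.28) and Oasl2 (0.56 ± 0.21) had one, while without KDSH mouse 8 the median was 0.02. In those last 2 comparisons no member had an unadjusted p under 0.05 in edgeR over the 21 libraries, and DESeq2 called 0 members (0.109% and 0% of all genes).

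What the members shared was their order across mice. Correlations were computed on log2 CPM after the mean of each group was subtracted, so that group differences play no part, for the 36 pairs of members. Among Ifit1, Ifit3, Isg15, Irf7, Oasl2, Usp18 and Rtp4, Pearson's r over 21 mice was 0.81 to 0.94 (median 0.89) in 21 pairs, and Spearman's rho was 0.76 to 0.95. All 21 passed 100000 permutations of the mice within groups after adjustment over the 36 pairs, with a largest adjusted p of 0.00012 for r and 0.000528 for rho. Ifit1 with Irf7 was the closest pair of the 7 (r = 0.94). With the 2 mice farthest from the median of a pair's first gene left out, r was 0.74 to 0.94. Of the other 20186 genes, between 2.497% (for Oasl2) and 11.05% (for Isg15) reached r of 0.5 with one of these 7, and 6 or 7 of the 8 other members were among the 100 genes nearest to each.

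Because Bst2 and Ifi27 fall into 2 clusters of libraries, their correlations were read within the 16 libraries low in choroid markers. Bst2 then joined the others, with r of 0.71 to 0.89 to the 7 members above, and all 7 pairs passed the permutation test (largest adjusted p 0.0402 for r, 0.0528 for rho, where 6 passed). All 8 other members were among the 100 genes nearest to Bst2. Ifi27 did not join in the 16. Its r with the 7 was 0.30 to 0.52 there, and 0 of 7 pairs passed (smallest adjusted p 0.14, for Usp18). With Bst2 its r was 0.73 (permutation p = 0.0165, adjusted p = 0.0228). Over the 21 libraries, r of Ifi27 with the 7 was 0.52 to 0.72, and all 7 pairs passed the permutation test. Without the 2 mice farthest from the median of a pair's first gene, r in the 16 was 0.14 to 0.65. It rose for Ifit1, Isg15 and Oasl2 and fell for Ifit3, Irf7, Usp18 and Rtp4.

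The 7 members kept r of 0.66 to 0.95 in the 16 libraries, with 21 of 21 pairs passing for r and 18 for rho. Leaving out a further 2 mice, those farthest from the median of the first gene, lowered r to 0.28 for Ifit3 with Rtp4, 0.34 for Usp18 with Rtp4 and 0.43 for Bst2 with Ifi27. For Rtp4, r also fell from 0.91 to 0.63 with Isg15 and from 0.85 to 0.56 with Irf7. It fell from 0.80 to 0.58 with Oasl2 and from 0.76 to 0.52 with Ifit1. For Ifit3 with Isg15, r fell from 0.77 to 0.56. All of these relations thus rest in part on the extreme mice. Over all pairs among the 7 the median r was then 0.74.

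**Figure D4:**
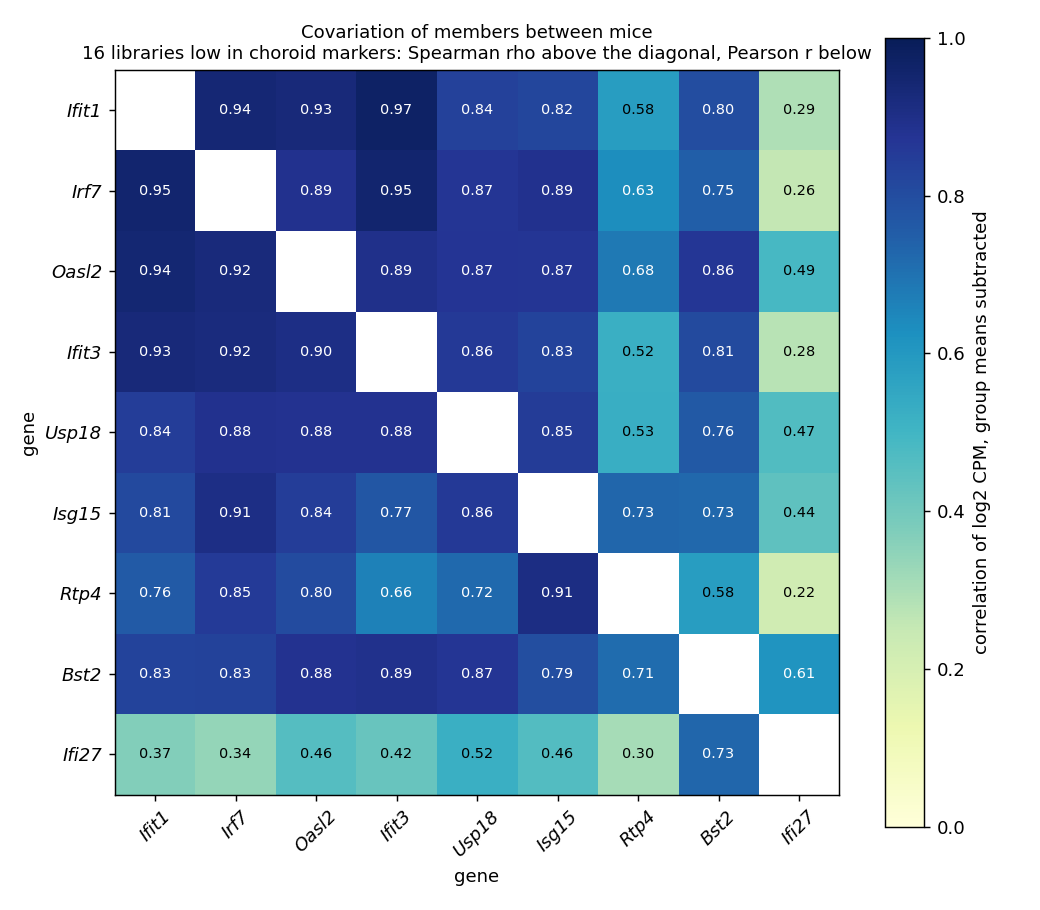
Correlation between members over the 16 libraries low in choroid plexus markers, on log2 CPM with group means subtracted, with Spearman's rho above the diagonal and Pearson's r below it (colour scale from 0 to 1). The block from Ifit1 to Bst2 is high, with r of 0.66 to 0.95, and the Ifi27 row is lower, at 0.30 to 0.52 except with Bst2 (0.73).

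The mice at the extremes were few. KDSH mouse 24 was among the 3 lowest of all 24 libraries for all 9 members, and lowest of all for Bst2. KDEE mouse 14 was among the 3 highest for 6 members, WTEE mouse 10 for 4, and KDSH mouse 8 and KDEE mouse 22 for 3 each. These high mice came from 3 groups, and 2 of the 4 (KDSH mouse 8 and KDEE mouse 22) were low in choroid markers. KDSH mouse 8 was also the kept library with the highest pituitary marker sum, and the part of that tissue in its levels was not tested.

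The set-aside libraries lay at both ends of the range. On a scaling of all 24 libraries, KDSH sample 6 was highest for 5 members (Ifit3, Irf7, Oasl2, Usp18 and Rtp4) and among the top 3 for 7. Its Irf7 stood at 503, against 343 in KDSH mouse 8, the next highest. WTSH sample 7 was lowest of 24 for 6 members and WTSH sample 4 stood near the middle, with a median rank of 13. Structural RNA gene models took 54589 to 227250 CPM in these 3 libraries against 329 to 24787 CPM in the kept ones. With all 24 libraries r among the 7 members was 0.86 to 0.95.

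Other genes of the response followed the same mice. Each tested gene was compared with the mean of the members, after each was centred within groups and divided by its SD. This is a description with no test, since the score is built from the members. The 10 genes most like it over 21 libraries were Parp10 (r = 0.93), Ifitm3 (0.92), Irgm1 (0.91), Oas1a (0.90), Ifih1 (0.90), Igtp (0.89), Cd74 (0.88), H2-Aa (0.88), Irgm2 (0.88) and Ifi35 (0.87). Ifitm3 blocks virus entry, Oas1a makes the signal that activates RNase L, Ifih1 senses double-stranded RNA, and Irgm1, Irgm2 and Igtp are GTPases induced by interferon gamma. Cd74 and H2-Aa serve antigen presentation on MHC class II. In the 16 libraries their r was 0.74 to 0.86. The 16 are among the 21 by which the 10 were picked, so this is not a separate check.

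Lists of known pathway genes differed in how far they followed the members. Of 49 other type I interferon-stimulated genes tested, 36 had r of 0.5 or more (32 in the 16 libraries), as had 18 of 19 GTPases, chemokines and antigen-processing genes induced by interferon gamma (19 in the 16). Over all other genes the share was 10.1%, and 2.72% in the 16. Among signal transducers Irf9 (0.68 in 21, 0.59 in 16) followed the members, and Stat2 (-0.32 and 0.32), Jak1 (-0.47 and 0.51) and Tyk2 (-0.60 and -0.20) did not do so in both sets. The receptor genes were mixed. Of 6, 3 reached 0.5 in the 21 libraries and 0 in the 16, with Ifnar1 at -0.69 and -0.35 and Ifnar2 at 0.56 and -0.03. Of 10 nucleic acid sensors 5 reached 0.5 in each set, led by Ifih1 and by Zbp1 (0.87 and 0.86).

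**Figure D5:**
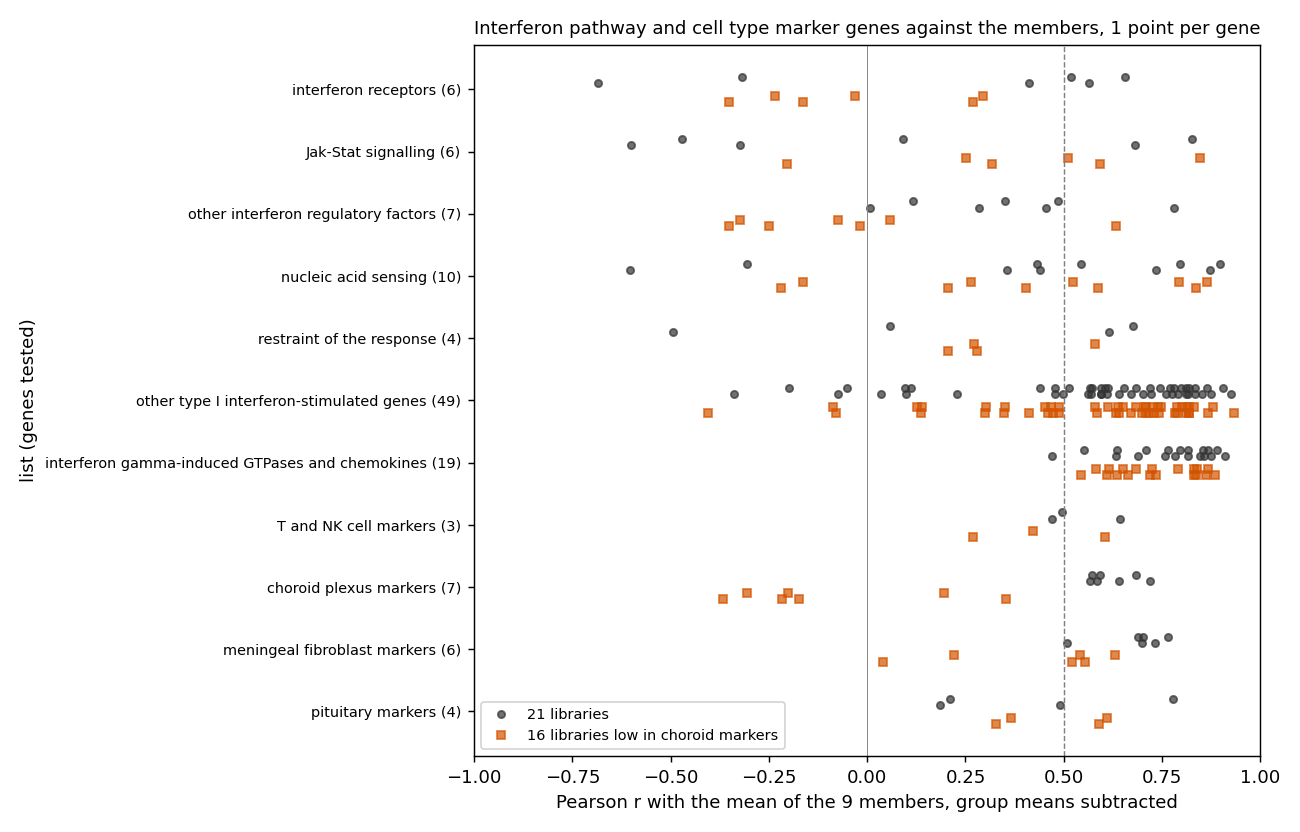
Pearson's r of single genes with the mean of the 9 members, group means subtracted (x axis), for genes of 7 interferon pathway lists and 4 marker lists (y axis, number tested in brackets), over 21 libraries (circles) and over 16 low in choroid plexus markers (squares). The genes induced by interferon gamma lie between 0.47 and 0.91 over 21 libraries, and the choroid plexus markers between 0.57 and 0.72, with 0.35 the highest over the 16. The 16 were chosen by a low sum of those choroid plexus markers.

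The marker lists followed the members to differing extents. All 7 choroid plexus markers had r of 0.5 or more with the members in the 21 libraries and none in the 16. The 16 were chosen by a low sum of these same markers, which removed most of the markers' range. The fall in r thus follows at least in part from that choice. Over the 21, the mean of the members also holds Bst2 and Ifi27, which were higher in every choroid-rich library. Of 6 meningeal fibroblast markers 6 did so in the 21 (median 0.70) and 4 in the 16 (median 0.53), where 10.1% and 2.72% of all genes did. Of 4 pituitary markers tested 1 and 2 did so, with Lhb at 0.78 and 0.61. Of 7 microglia markers 2 and 0 did so, of 5 endothelial markers 2 and 0, and of 5 astrocyte markers 1 and 0. Of 5 red blood cell markers and of 7 hippocampal neuron markers 0 did so in either set. Of 3 T and NK cell markers tested, Nkg7 did so in each set (0.64 and 0.60). T and NK cell markers summed to 0.405 to 1.79 CPM in the 21, so the libraries held hardly any reads of them. The part of all these cells in the covariation was not tested.

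None of the interferon genes looked at was measurable. Of 9 such genes (Ifnb1, Ifna1, Ifna2, Ifna4, Ifnk, Ifne, Ifng, Ifnl2 and Ifnl3) 0 passed the filter, and the highest count in any of 24 libraries was 4, for Ifnk. Ifng reached at most 3 read pairs, and Ifnb1 had 2 read pairs in 1 library, of KDEE, and 0 in the others. At this depth a level below that cannot be told from none.

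None of 101 other pathway genes tested, of 113 listed, was called in any of the 7 comparisons by edgeR or DESeq2. Of all genes, edgeR called 0% to 0.00495% in these comparisons and DESeq2 0% to 0.312%, so the absence of calls is not particular to the pathway. Group comparisons of these genes are given for the 21 libraries only, not for the 16 low in choroid markers. Unadjusted p in edgeR was under 0.05 for 15 of the 101 for KDEE against KDSH, all higher in KDEE, where 11.6% of all genes had one. For WTEE against KDEE it was so for 16 that were lower and 1 that was higher in WTEE, where 4.99% of all genes had one. For KDEE against KDSH 82 of the 101 had a higher mean in KDEE and 19 a lower one (median 0.22). Of all genes 50.4% were higher there. For WTEE against KDEE 16 were higher and 85 lower in WTEE (median -0.20), where 49.5% of all genes were higher. Many of the 101 vary with the members from mouse to mouse, so they are not independent. Their counts, of p as of direction, thus cannot be read against the shares of all genes. Tlr3, a sensor of double-stranded RNA, had the smallest p in both, at 0.32 ± 0.09 log2 for KDEE against KDSH (edgeR adjusted p = 0.338) and -0.27 ± 0.08 for WTEE against KDEE (adjusted p = 0.331). Next came Nmi (0.47 ± 0.15) and Irgm1 (0.40 ± 0.14) in the former, and Irf4 (0.59 ± 0.20) and Ddx60 (-0.61 ± 0.20) in the latter. The differences of the transducers and receptor genes upstream were small. Stat2 differed by -0.18 ± 0.09 log2 for KDEE against KDSH, Irf9 by 0.02 ± 0.10, Jak1 by -0.10 ± 0.05, Tyk2 by -0.19 ± 0.10, Ifnar1 by -0.06 ± 0.05 and Ifnar2 by 0.16 ± 0.08. In WT mice 50 of the 101 were higher and 51 lower after enrichment. Socs3, an inhibitor of cytokine signalling, had the smallest p there (0.48 ± 0.17, edgeR adjusted p = 0.651), followed by Ifit1bl1 (0.30 ± 0.11) and Irf4 (0.51 ± 0.22).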

How the data were processed

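The authors isolated RNA with Trizol, made unstranded poly(A) libraries (TruSeq), checked reads with FastQC 0.11.3, trimmed them with Skewer, aligned read pairs to GRCm38 with STAR 2.5 and counted unique alignments per gene with HTSeq 0.6.1p1. They deposited 1 file of raw counts per mouse, and normalized nothing in it. The summary lines of HTSeq were left out of library sizes (no feature, 8.41% to 15.7% of read pairs in the kept libraries, and ambiguous, 4.14% to 6.57%).

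From the counts, edgeR 4.0.16 (TMM, filterByExpr, quasi-likelihood test, 4 groups in 1 model of 21 libraries, R 4.3.3) gave fold changes, and the SE is the fold change over the root of F. A call needs a Benjamini-Hochberg adjusted p under 0.05 over all 20187 genes and an absolute log2 value over 0.38, as in the study, whose own test was DESeq2. DESeq2 1.42.0 was run as an alternative. Correlations used log2 CPM with a prior count of 2 and 100000 permutations, which can give no p below 1e-05. Mice are the replicates. Gene positions and exon lengths are from GENCODE on GRCm38. Scripts were tested on simulated data. The members and gene lists were chosen with earlier results of these data known. Genes named are the members, the 10 genes most like them, fixed upstream genes (some genes are not reported here) and, per comparison, the 3 pathway genes of smallest p, plus markers, the gene that carries the mutation, and Zbp1 and Ifit3b, which were named after their values were seen. Python 3.11.15 with numpy 2.4.6, pandas 2.3.3, scipy 1.17.1 and matplotlib drew the rest.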

Additional observations from a re-analysis of the deposited data

Results flagged for a closer look

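In 7 of the 36 groups of member values, a single mouse stood apart from the rest of its group by Dixon's test, where chance flags about 1 in 20 groups. The 36 are not independent, since the members vary together and 4 of the 7 are the same mouse, so their number cannot be read against that share. WTEE mouse 10 was far above the other WTEE mice in Ifit1 (253), Ifit3 (869), Isg15 (241) and Usp18 (133), where the next highest were 123, 437, 93.5 and 62.7. KDSH mouse 8 was far above its group in Isg15 (197, next 90.4), WTSH mouse 19 in Bst2 (547, next 237), and WTSH mouse 5 was far below its group in Irf7 (98.3, next 158). WTEE mouse 10 and WTSH mouse 19 are among the 5 libraries rich in choroid plexus markers (217 and 322 CPM), and KDSH mouse 8 holds the highest pituitary marker sum of the kept libraries. The part of these tissues was not tested.

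KDSH sample 6, which the study set aside and which enters no comparison except the alternative with all 24 libraries, held more of 7 members than any kept WTSH library on the scaling of all 24 libraries. Its normalized counts were 314 for Ifit1 (highest WTSH 169), 931 for Ifit3 (579.7), 231 for Isg15 (117), 503 for Irf7 (160.4), 586 for Oasl2 (311), 197 for Usp18 (106) and 236 for Rtp4 (159.7). Its pituitary markers summed to 405 CPM, and their part in these levels was not tested.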

How the results depend on the processing

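The count of members called stayed at 0 in all 7 comparisons under DESeq2, RLE size factors, dropping the low-count filter, requiring 10 counts or more in each library, all 24 libraries, fits of only the groups compared (run for the 4 comparisons of 2 groups), removal of each library in turn, and, chosen after seeing the data, removal of the 5 choroid-rich libraries. The median r of the 36 pairs was 0.79 to 0.89 under the alternatives run on 19 or more libraries and in the 16 (0.84 as reported), and 0.71 in the 16 with a further 2 mice left out. Removing single libraries turned the sign of 66 of 1323 fold changes, and the other settings that of 23 of 414, of which 9 came with all 24 libraries and 12 without the 5 choroid-rich ones. For KDEE against KDSH, Usp18 turned to -0.07 log2 without KDEE mouse 14, and Bst2 ranged from 0.75 without KDEE mouse 12 to 1.19 without KDEE mouse 9. Between WTEE and KDEE all 9 signs held when any 1 library was removed, and Oasl2 ranged from -0.88 to -0.61 log2, while Ifi27 was -0.01 without KDEE mouse 12. No paired analysis was possible because no mouse number occurs in more than 1 group. With 4 to 6 mice per group the SE of a member's difference between 2 groups was 0.22 to 0.48 log2.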
